A study of Homo sapiens with 6 samples.

Results

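The miR-17-92 cluster is a group of miRNAs cut from a single primary transcript, and its mature products were followed here by small RNA sequencing of MDA-MB-231 cells. The members were chosen by name as the mature miRNAs of the chromosome 13 transcript. The rule uses no measured value, but the cluster was chosen with earlier results of these data known. They are 10 of the 1582 miRNAs in the deposited table, 6 of them the more abundant (guide) arm of their hairpin and 4 the other (passenger) arm. All 10 passed the filter on low counts and were tested.

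MDA-MB-231 is a human triple-negative breast cancer (TNBC) cell line. The study compared 3 control libraries of non-transfected cells with 3 libraries of cells carrying RARαS77A, a form of the retinoic acid receptor α in which serine 77 is replaced by alanine and cannot be phosphorylated. The design text of the submitters describes lentiviral delivery, and an empty-vector or wild-type RARα library is not part of this comparison, so delivery of the vector and the mutant receptor cannot be told apart. The libraries were made in triplicate from total RNA, and the sources used here do not state whether the replicates were grown separately, so the p-values measure only the spread between these libraries.

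miR-17-92 is transcribed as MIR17HG, a non-coding host gene that MYC and E2F factors are known to activate, and is amplified or overexpressed in many lymphomas and carcinomas, for which it has been called oncomiR-1. Each hairpin is cut out of the transcript separately and yields a pair of strands, so members of the same transcript can still differ in level. miR-17-5p and miR-20a-5p are known to repress the cell cycle inhibitor CDKN1A and E2F1, miR-18a-5p represses components of TGF-β signalling, and miR-92a-3p is known for repressing integrin α5 in endothelial cells. Paralogous clusters on chromosome 7 (miR-106b-25, within MCM7) and chromosome X (miR-106a-363) encode miRNAs with the same seeds.

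The mature sequences of the guide arms are shown because they define which members can share targets and which reads can be told apart. They are written 5′ to 3′ as given by RefSeq (GRCh38.p14), with the seed (bases 2 to 8) in capitals.
hsa-miR-17-5p: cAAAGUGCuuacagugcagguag
hsa-miR-20a-5p: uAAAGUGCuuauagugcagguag
hsa-miR-18a-5p: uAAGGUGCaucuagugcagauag
hsa-miR-19a-3p: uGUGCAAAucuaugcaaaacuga
hsa-miR-19b-3p: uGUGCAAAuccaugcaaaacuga
hsa-miR-92a-3p: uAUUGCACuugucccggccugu
The 6 guide arms carry 4 seeds. miR-17-5p and miR-20a-5p share AAAGUGC and differ by C1U and C12U, counted from the 5′ end with the base of miR-17-5p first. miR-19a-3p and miR-19b-3p share GUGCAAA and differ by U11C. The seed of miR-18a-5p, AAGGUGC, and that of miR-92a-3p, AUUGCAC, each belong to 1 member.

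The passenger arms have seeds that no other member has, and they are shown because miR-92a-1-5p marks the chromosome 13 hairpin of a guide arm that is also encoded elsewhere, and the others are compared with their guide arms below.
hsa-miR-17-3p: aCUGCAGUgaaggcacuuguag
hsa-miR-18a-3p: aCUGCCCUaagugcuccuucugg
hsa-miR-20a-3p: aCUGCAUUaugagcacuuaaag
hsa-miR-92a-1-5p: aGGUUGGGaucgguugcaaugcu
miR-92a-1-5p comes from the chromosome 13 hairpin MIR92A1, whereas miR-92a-3p is also encoded by MIR92A2, and miR-19b-3p by MIR19B2, both on chromosome X. The precursor of miR-17 shows how the arms of a hairpin lie in the transcript, with miR-17-5p and then miR-17-3p in capitals.
MIR17: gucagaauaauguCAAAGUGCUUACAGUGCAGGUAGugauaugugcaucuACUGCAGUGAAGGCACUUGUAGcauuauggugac
MIR17 has 84 bases and lies on the plus strand at chr13:91350605-91350688 (GRCh38). The 6 precursors of the cluster follow each other over 787 bases, to position 91351391, inside MIR17HG (91347820 to 91354579). In GENCODE 29, each precursor overlaps an exon in 2 of the 3 host transcripts that span it and lies in an intron of the remaining 1. The files do not state a genome build, and these positions were taken from the annotation.

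The libraries held between 9019266 and 11338580 counts, and no library was a duplicate of another of its own group within sampling noise. Control libraries were not compared with RARαS77A libraries in this way. Markers of mesenchymal-like breast cancer cells made up most of the counts in every library, with 613400 to 708800 CPM (counts scaled to a common library size) for 5 miRNAs, against 89.7 to 127.6 CPM for 6 epithelial ones. Most of the mesenchymal sum was miR-21-5p, at 446900 to 515300 CPM. Control replicate 3 stood apart from the other controls. The 8 listed miRNAs of pluripotent cells summed to 421.5 CPM in control replicate 3 and to 278.1 to 287.6 CPM in the RARαS77A libraries, against 0.0882 and 0.185 CPM in the other controls. Of these 8 miRNAs, 6 were tested and 0 were called with edgeR (0 also at an unadjusted p under 0.05). A sum of 91.5 CPM for 4 muscle miRNAs was found in control replicate 1, against 2.65 to 5.1 CPM elsewhere. In control replicate 2, miR-375-3p, 1 of 2 listed endocrine markers, stood at 76.73 CPM, against 1.758 to 5.987 CPM elsewhere. The other endocrine marker, miR-7-5p, was lowest in that library, at 4872 CPM, against 5735 to 8966 CPM elsewhere. The liver marker miR-122-5p was at 8.731 CPM in control replicate 2, against 34.58 to 53.55 CPM elsewhere. The part of these miRNAs in the results below was not tested. Calls of members and listed miRNAs were therefore also made with a term that places control replicate 3 together with the RARαS77A libraries. With this term the difference between the groups rests on control replicate 3 alone against the RARαS77A libraries. A call lost with the term cannot be told apart from the effect of this smaller comparison.

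The members as a whole took a smaller share of the counts in RARαS77A cells than in control cells. They made up 1.70%, 1.63% and 1.55% of all counts in the control libraries and 0.521%, 0.680% and 0.581% in the RARαS77A libraries. The groups did not overlap, with means of 1.62% ± 0.0735 and 0.594% ± 0.0806 (SD, n = 3 each; two-sided exact permutation test, p = 0.1). A share of all counts also falls where other miRNAs take up more of them, and changes under other scalings are given below. In bulk libraries, fewer cells that express a miRNA and less of it per cell cannot be told apart. Within the member counts, miR-92a-3p made up 43.6% ± 2.80 in control and 52.2% ± 3.91 in RARαS77A cells, and miR-17-5p 22.3% ± 1.12 and 16.9% ± 1.47 (SD, n = 3 each), both without overlap. miR-20a-5p made up 32.5% ± 1.64 and 29.4% ± 2.55 of member counts, with overlap, so these guide arms together gave most of the member counts.

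The values that follow are CPM after TMM normalization, which corrects the totals for composition, and changes are log2 fold changes of RARαS77A against control from edgeR's quasi-likelihood test. A miRNA was called when its Benjamini-Hochberg adjusted p over the 506 miRNAs tested was under 0.05.

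miR-17-5p, which gives the cluster its name, fell to 41.2% of its control level. It stood at 3425, 2832 and 2694 CPM in the control libraries and at 1136, 1486 and 1067 CPM in the RARαS77A libraries. The lowest control was well above the highest RARαS77A library. The log2 fold change of miR-17-5p was -1.28 (standard error, SE, of 0.15, edgeR adjusted p = 0.00056), and 49 of the 506 tested miRNAs had a lower value. miR-17-5p ranked between 27 and 32 by count in control cells and between 43 and 53 in RARαS77A cells.

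miR-20a-5p, the seed partner of miR-17-5p, fell to 49.1% of control. Its level was 5049, 3946 and 4028 CPM in control and 2027, 2507 and 1865 CPM in RARαS77A libraries, again without overlap. The log2 fold change was -1.03 (SE 0.15, edgeR adjusted p = 0.00143). Both AAAGUGC members were therefore lower in each RARαS77A library than in any control library.

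miR-19b-3p had the lowest log2 fold change among the 10 members. It stood at 180.1, 89.9 and 96.7 CPM in control and at 34.3, 36.4 and 32.6 CPM in RARαS77A libraries. Control replicate 1 was far above the other controls, while the RARαS77A libraries lay close together. The log2 fold change of miR-19b-3p was -1.83 (SE 0.28, edgeR adjusted p = 0.00171). It was between -2.02 and -1.44 when any 1 library was left out.

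miR-19a-3p, which differs from miR-19b-3p by a single base, was counted much less often. It had 188, 110 and 117 counts in control and 37, 61 and 54 in RARαS77A libraries, or 15.1, 7.48 and 10.7 against 4.71, 7.26 and 6.50 CPM. The groups did not overlap, but control replicate 2 and RARαS77A replicate 2 nearly met. The log2 fold change was -0.84 (SE 0.30) and missed the limit (edgeR adjusted p = 0.0533). It was called without control replicate 2 (-1.05, edgeR adjusted p = 0.0148) or control replicate 3 (-0.92, edgeR adjusted p = 0.0394), and under 9 of the 18 alternatives run in all.

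miR-18a-5p was not called. Its level was 49.96, 48.7 and 51.1 CPM in control and 31.2, 43.1 and 40.5 CPM in RARαS77A libraries, without overlap, with a log2 fold change of -0.38 (SE 0.17, edgeR adjusted p = 0.104). It was called lower under 7 of the 18 alternatives, DESeq2 among them (-0.43, DESeq2 adjusted p = 0.0167).

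miR-92a-3p, the most abundant member, fell to 65.4% of control. It stood at 5941, 5569 and 5851 CPM in control and at 3167, 4216 and 3970 CPM in RARαS77A libraries. The controls lay close together and all above the RARαS77A libraries, with a log2 fold change of -0.61 (SE 0.12, edgeR adjusted p = 0.00463). miR-92a-3p ranked between 17 and 20 by count in control and between 23 and 27 in RARαS77A cells.

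**Figure D1:**
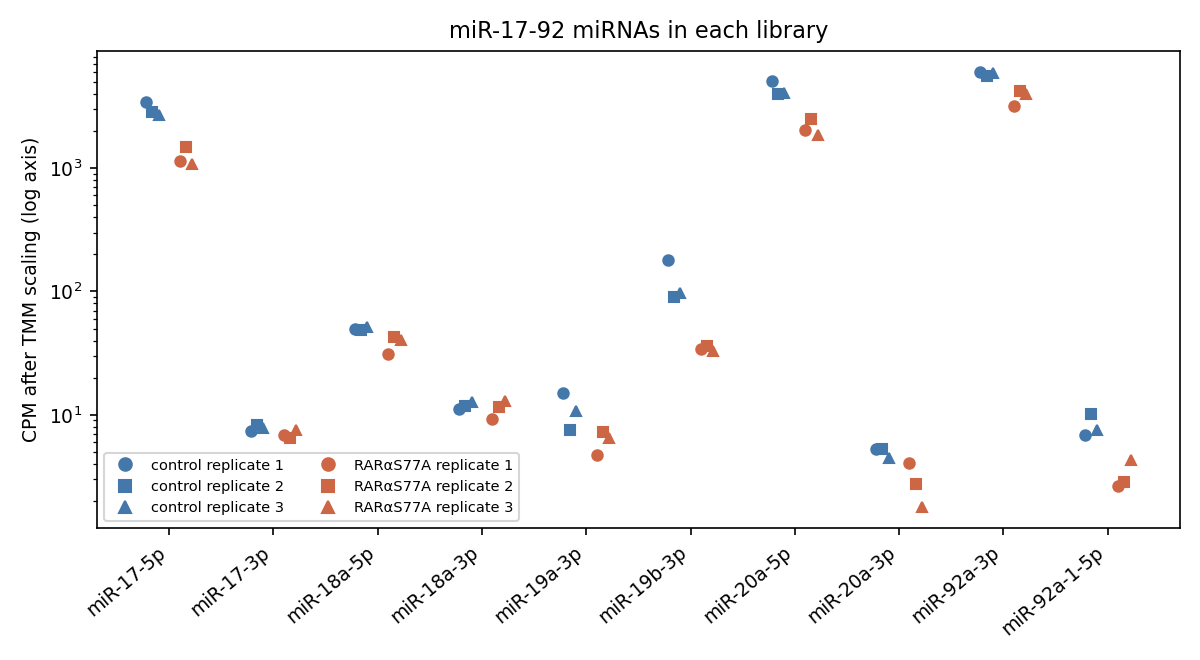
CPM after TMM scaling of the 10 miR-17-92 miRNAs on a log axis, with 1 point per library, control in blue and RARαS77A in orange. The RARαS77A points lie below all control points for 8 of the 10 members, and overlap with them for miR-17-3p and miR-18a-3p.

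The passenger arms were low in every library and did not behave alike. miR-92a-1-5p, the partner of miR-92a-3p from the chromosome 13 hairpin, had 85, 150 and 82 counts in control and 21, 24 and 36 in RARαS77A libraries. Its levels of 6.82, 10.2 and 7.49 CPM in control and 2.67, 2.86 and 4.33 CPM in RARαS77A did not overlap. This corresponds to a log2 fold change of -1.31 (SE 0.26, edgeR adjusted p = 0.00551).

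miR-20a-3p had 66, 78 and 49 counts in control and 32, 23 and 15 in RARαS77A libraries. Its levels of 5.29, 5.30 and 4.48 CPM and of 4.07, 2.74 and 1.81 CPM, respectively, did not overlap. The log2 fold change was -0.81 (SE 0.28) and passed the limit narrowly (edgeR adjusted p = 0.0482). With the term for control replicate 3, miR-20a-3p was at -0.64 and lost its call (edgeR adjusted p = 0.243). The call was also lost without control replicate 1 (-0.78), control replicate 2 (-0.74), RARαS77A replicate 2 (-0.74) or RARαS77A replicate 3 (-0.54).

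miR-17-3p and miR-18a-3p were not called. miR-17-3p had 7.46, 8.29 and 7.77 CPM in control and 6.87, 6.43 and 7.58 CPM in RARαS77A libraries, a log2 fold change of -0.17 (SE 0.16, edgeR adjusted p = 0.421). miR-18a-3p had 11.2, 11.7 and 12.8 CPM in control and 9.28, 11.6 and 12.9 CPM in RARαS77A libraries, a log2 fold change of -0.08 (SE 0.18, edgeR adjusted p = 0.725). In both the groups overlapped, and the sign depended on the scaling (0.038 and 0.12 under upper quartile scaling). The other arm of MIR19B1, miR-19b-1-5p, had only 9 to 21 counts in a library, with a log2 fold change of -0.17 (edgeR adjusted p = 0.668).

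In all, 6 of the 10 members were called lower and 0 higher, where 21.1% of the 506 tested miRNAs were called lower and 23.3% higher. At an unadjusted p under 0.05, 7 members were lower and 0 higher, against 128 and 139 of the 506 tested miRNAs. The members called were 4 of the 6 guide arms (hsa-miR-17-5p, hsa-miR-20a-5p, hsa-miR-19b-3p and hsa-miR-92a-3p) and 2 of the 4 passenger arms (hsa-miR-20a-3p and hsa-miR-92a-1-5p). The members not called were hsa-miR-17-3p, hsa-miR-18a-5p, hsa-miR-18a-3p and hsa-miR-19a-3p. For 8 of the 10 members, all RARαS77A libraries were below all control libraries, as for 27.1% of the tested miRNAs (two-sided exact permutation test, p = 0.1 for each, the smallest that 3 against 3 allow). The median log2 fold change was -0.83 over the members and 0.06 over all tested miRNAs.

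**Figure D2:**
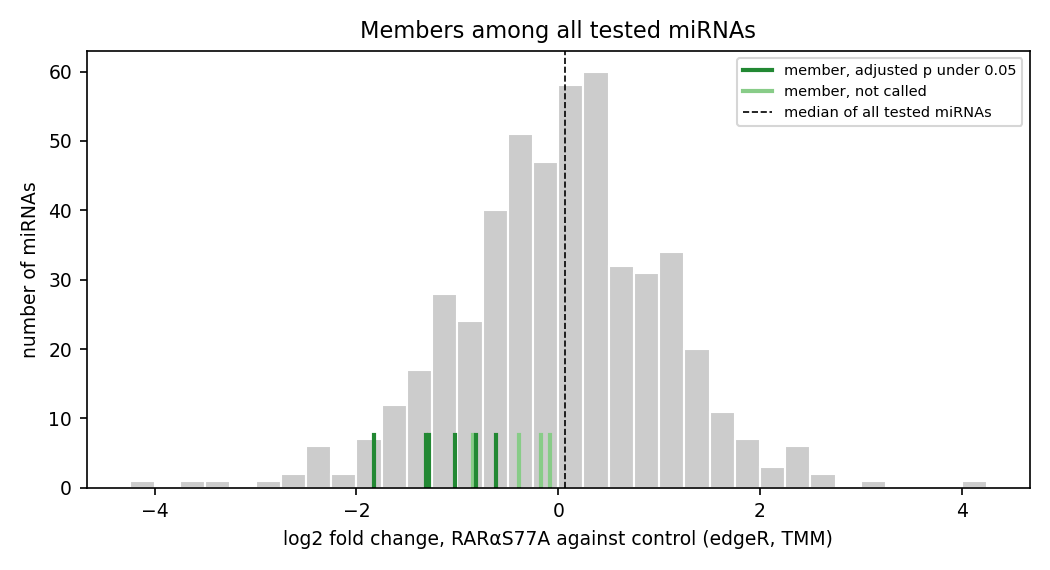
Distribution of the log2 fold changes of the 506 tested miRNAs (bars, number of miRNAs) with the 10 members as vertical marks, dark green where called and light green where not. All members lie to the left of the dashed median of 0.06, from -1.83 for miR-19b-3p to -0.08 for miR-18a-3p.

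The size of the fall depended on the scaling, for which the TMM factors were 1.15 to 1.30 in control and 0.811 to 0.830 in RARαS77A libraries. Scaled to total counts only, all 10 members were called lower, from -0.66 to -2.38, but so were 42.1% of the tested miRNAs, and the median of all miRNAs shifted to -0.51. Under upper quartile scaling, 5 members were called lower, against 14.6% of the tested miRNAs, with a median of 0.27. With the term for control replicate 3, 5 members were called lower, against 10.9%. miR-17-5p, miR-19b-3p, miR-20a-5p, miR-92a-3p and miR-92a-1-5p were called lower under each of the 18 alternatives run.

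**Figure D3:**
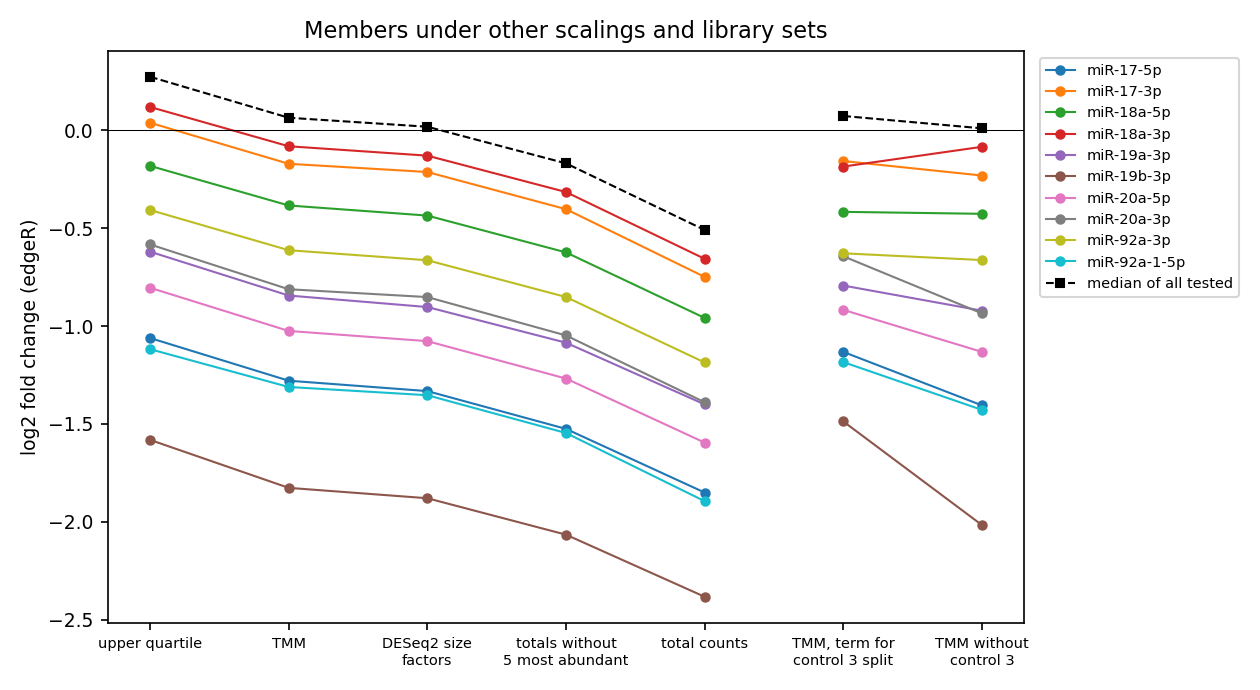
Log2 fold change of each member (colored lines) and the median of all tested miRNAs (black squares) under 5 scalings in edgeR, and, apart on the right, with a term for the split of control replicate 3 and without that library. The members keep almost the same order and distances under the 5 scalings, while the median moves from 0.27 (upper quartile) to -0.51 (total counts).

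Ratios of members within a library do not depend on the scaling, and they asked whether the members of the transcript fell by the same amount. Relative to miR-17-5p, 4 of the 9 other members were called higher in RARαS77A cells by limma and 0 lower (4 also at an unadjusted p under 0.05). Of all other tested miRNAs, 71.9% were called higher relative to miR-17-5p and 1.78% lower. All of these ratios share the counts of miR-17-5p.

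miR-92a-3p stood at 173.5%, 196.7% and 217.2% of the miR-17-5p count in control and at 278.8%, 283.8% and 372% in RARαS77A libraries. The groups did not overlap, and the log2 ratio differed by 0.66 (SE 0.17, limma adjusted p = 0.00727). miR-18a-5p stood at 1.46%, 1.72% and 1.90% of miR-17-5p in control and at 2.74%, 2.90% and 3.79% in RARαS77A libraries, a log2 difference of 0.89 (SE 0.21, limma adjusted p = 0.00454). The passenger arms miR-18a-3p (1.20, limma adjusted p = 0.00356) and miR-17-3p (1.12, limma adjusted p = 0.00639) were also higher relative to miR-17-5p. With the term for control replicate 3, 0 of the 9 ratios were called by limma (2 at an unadjusted p under 0.05), against 55.2% of all other tested miRNAs called higher. The log2 differences were then 0.51 for miR-92a-3p, 0.72 for miR-18a-5p, 0.95 for miR-18a-3p and 0.99 for miR-17-3p (limma adjusted p from 0.0693 to 0.108).

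The ratio of miR-20a-5p to miR-17-5p was 147.4%, 139.3% and 149.5% in control and 178.5%, 168.7% and 174.7% in RARαS77A libraries. These values did not overlap, but the log2 difference of 0.26 (SE 0.13) was not called (limma adjusted p = 0.108). The ratio of miR-19b-3p to miR-17-5p was lower without overlap, at a log2 difference of -0.47 (SE 0.23, limma adjusted p = 0.0982). Values for miR-19a-3p (0.48), miR-20a-3p (0.43) and miR-92a-1-5p (-0.02) overlapped between the groups. In all, 6 of 9 ratios separated the groups, as did 77.6% of all miRNAs set against miR-17-5p (two-sided exact permutation test, p = 0.1 for each of the 6).

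**Figure D4:**
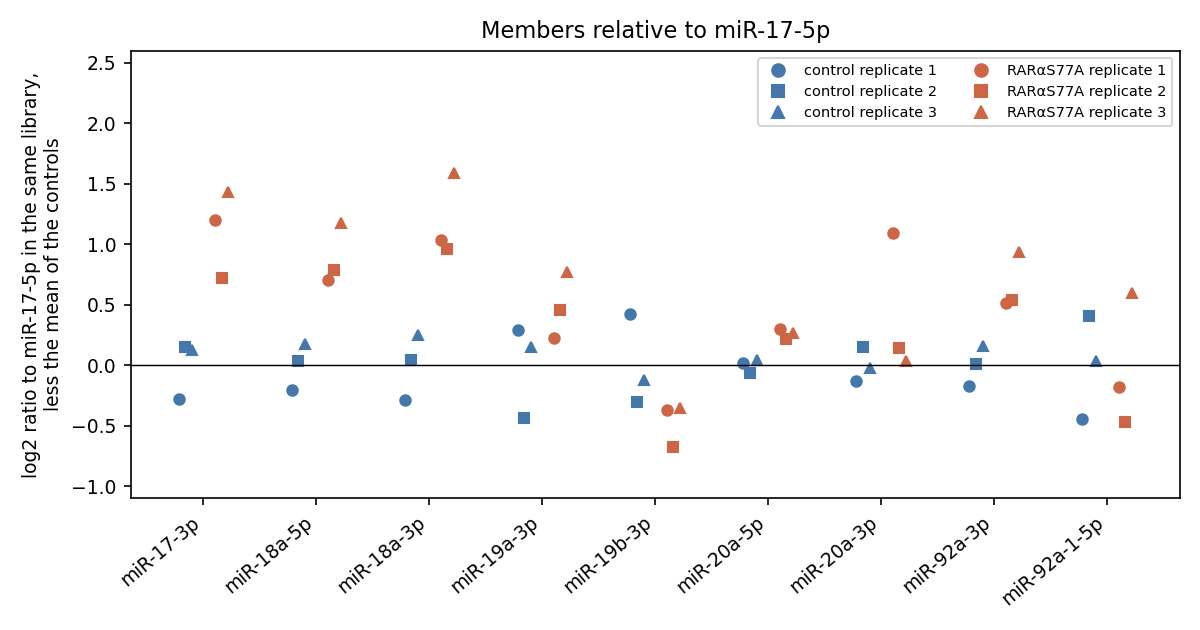
Log2 ratio of each other member to miR-17-5p in the same library, less the mean of the control libraries, with 1 point per library. The RARαS77A points (orange) lie above all controls (blue) for miR-17-3p, miR-18a-5p, miR-18a-3p, miR-20a-5p and miR-92a-3p and below them for miR-19b-3p.

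The 3p and 5p arms of a hairpin come from the same precursor molecule, and their ratio was compared with limma over 141 hairpins with at least 10 counts on average in each arm. Of these, 53.2% were called in either direction. Of the 4 hairpins with both arms among the members, 1 was called (2 at an unadjusted p under 0.05). miR-17-3p stood at 0.218%, 0.293% and 0.288% of miR-17-5p in control and at 0.605%, 0.433% and 0.711% in RARαS77A libraries. This log2 difference was 1.12 (SE 0.25, limma adjusted p = 0.00988). With the term for control replicate 3 it was 0.99 and was not called (limma adjusted p = 0.111).

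The remaining 3 ratios between members were not called, although those of miR-92a and miR-18a separated the groups. The log2 ratio of miR-92a-3p to miR-92a-1-5p was higher by 0.68 (SE 0.29, limma adjusted p = 0.0837), where miR-92a-3p can also come from chromosome X. The ratio of miR-18a-3p to miR-18a-5p differed by 0.31 (SE 0.15, limma adjusted p = 0.124). That of miR-20a-3p to miR-20a-5p differed by 0.17 (SE 0.31, limma adjusted p = 0.668), and its groups overlapped.

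In the ratio of 3p to 5p, the hairpin MIR19B1 went the other way, although its 5p arm, miR-19b-1-5p, is no member and had few counts. Its guide arm is the 3p arm, as in miR-92a, whereas miR-17, miR-18a and miR-20a have a 5p guide arm. Relative to the other arm, the guide arm of miR-17, miR-18a and miR-19b was thus lower in RARαS77A libraries. That of miR-92a was higher, and the ratios of miR-18a and miR-92a were not called. The log2 ratio of miR-19b-3p to miR-19b-1-5p was 6.85, 5.94 and 6.003 in control and 4.44, 5.01 and 4.56 in RARαS77A libraries, without overlap. This ratio was lower by a log2 difference of -1.60 (SE 0.29, limma adjusted p = 0.00427), and by -1.33 with the term for control replicate 3, where it was not called (limma adjusted p = 0.0976). miR-19b-3p can also come from chromosome X.

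In the paralogous cluster on chromosome 7, both arms with the miR-17 seed fell and the arm with the miR-92 seed was not called. These arms are printed because their seeds are those of miR-17-5p and miR-92a-3p.
hsa-miR-93-5p: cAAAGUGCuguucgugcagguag
hsa-miR-106b-5p: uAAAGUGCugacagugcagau
hsa-miR-25-3p: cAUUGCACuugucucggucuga
miR-106b-5p fell from 387.4 ± 39.96 to 144.2 ± 14.1 CPM (mean ± SD, n = 3 each), or by a log2 fold change of -1.43 (SE 0.12, edgeR adjusted p = 0.000237). miR-93-5p fell from 3192 ± 132 to 1534 ± 244 CPM (mean ± SD, n = 3 each), or by a log2 fold change of -1.06 (SE 0.12, edgeR adjusted p = 0.000443). miR-25-3p, with the miR-92 seed, stood at 2211 ± 190 and 2433 ± 224 CPM (SD, n = 3 each) and was not called (0.14, edgeR adjusted p = 0.306). Of the 6 arms of this cluster, 4 were called lower and 0 higher, with miR-93-3p at -1.16 and miR-25-5p at -2.58. Among the 506 tested miRNAs, 21.1% were called lower and 23.3% higher. miR-93-3p lost its call with the term for control replicate 3 (-0.84, edgeR adjusted p = 0.0934). miR-106b-3p, about level with miR-106b-5p in control and above it in RARαS77A libraries, was at 0.07 (edgeR adjusted p = 0.656). Under scaling to total counts the signs of miR-25-3p and miR-106b-3p turned (-0.44 and -0.51). Both were then called lower (edgeR adjusted p = 0.0193 and 0.0136), as were 42.1% of the tested miRNAs. Under upper quartile scaling miR-25-3p was called higher (0.34, edgeR adjusted p = 0.0460).

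Ratios of members to paralogues, which are free of scaling, were compared for 8 pairs, of which 4 separated the groups (two-sided exact permutation test, p = 0.1 for each of the 4, which does not pass after adjustment). Of these 4, the ratios of miR-20a-5p to miR-20b-5p and of miR-92a-3p to miR-363-3p use miRNAs that followed the split of control replicate 3. miR-17-5p stood at 839.3%, 686.2% and 789.3% of miR-106b-5p in control and at 839.3%, 926.4% and 780.4% in RARαS77A libraries, with overlap. The ratio of miR-17-5p to miR-93-5p was 102.4%, 90.9% and 86.5% in control and 82.7%, 81.9% and 75.4% in RARαS77A libraries, without overlap. miR-92a-3p stood at 273.4%, 230.4% and 286.3% of miR-25-3p in control and at 143.5%, 158.8% and 162.8% in RARαS77A libraries. Relative to miR-25-3p, miR-92a-3p was thus lower in each RARαS77A library than in any control. The ratio of miR-92a-3p to miR-92b-3p overlapped (log2 difference of -0.18, two-sided exact permutation test, p = 0.4).

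The cluster on chromosome X had few counts, and 4 of its 10 listed arms were in the table. miR-106a-5p, whose sequence differs from that of miR-17-5p by C1A, had 46, 53 and 58 counts in control and 15, 21 and 26 in RARαS77A libraries. The sources used here do not say how reads matching both were assigned. For miR-106a-5p the log2 fold change was -0.73 (edgeR adjusted p = 0.0543), and -1.07 with the term for control replicate 3 (edgeR adjusted p = 0.0376). miR-18b-5p had 0 to 3 counts per library and was not tested.

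miR-20b-5p and miR-363-3p followed the split of control replicate 3. miR-20b-5p had 1, 2 and 30 counts in control and 19, 19 and 16 in RARαS77A libraries. miR-363-3p had 12, 15 and 85 counts in control and 95, 86 and 93 in RARαS77A libraries. Their log2 fold changes were 1.24 and 1.81 and were not called (edgeR adjusted p = 0.339 and 0.0856). Without control replicate 3 both were called, at 4.13 and 3.43 (edgeR adjusted p = 0.000327 and 1.72e-05). The pluripotent miRNAs given above showed the same split, and their part in these values was not tested. miR-20a-5p, by comparison, had 44091 counts in control replicate 3, against 62960 and 58046 in the other controls.

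**Figure D5:**
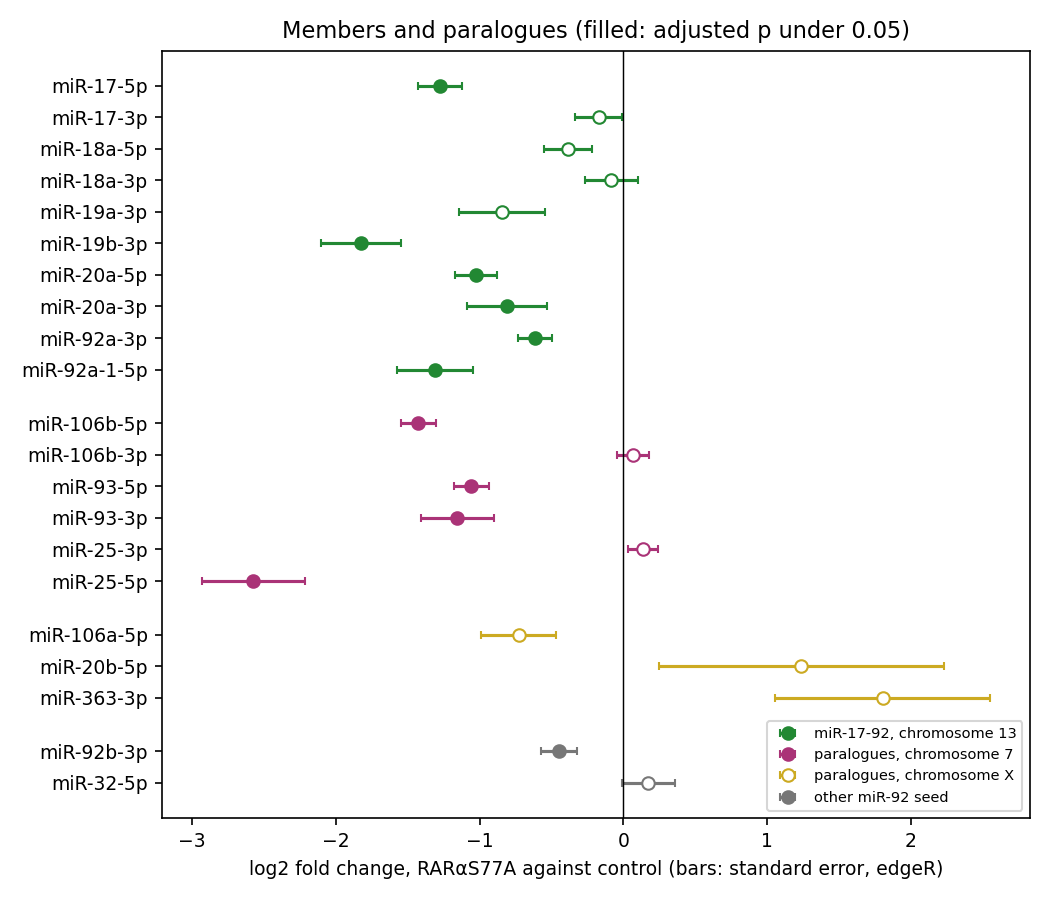
Log2 fold change with standard error (edgeR) of the members, the paralogues on chromosomes 7 and X, and the remaining miRNAs with the miR-92 seed that were tested and named, filled where the adjusted p is under 0.05. miR-17-5p, miR-20a-5p, miR-93-5p and miR-106b-5p lie between -1.43 and -1.03, and miR-25-3p and miR-32-5p lie just above 0.

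Grouped by seed over the genome, 8 miRNAs in the table carry AAAGUGC, 6 were tested, and 4 were called lower (miR-17-5p, miR-20a-5p, miR-93-5p and miR-106b-5p) and 0 higher, with a median of -1.04. The seed AUUGCAC is carried by 6 miRNAs, of which 5 were tested. Of these, 2 were called lower, miR-92a-3p and miR-92b-3p (-0.45, edgeR adjusted p = 0.0225), and 0 higher, with a median of 0.14. Beside these counts, 21.1% of the 506 tested miRNAs were called lower and 23.3% higher. miR-92b-3p lost its call with the term for control replicate 3 (-0.20, edgeR adjusted p = 0.377) and under upper quartile scaling (-0.24, edgeR adjusted p = 0.187). miR-32-5p was at 0.17 (edgeR adjusted p = 0.474).

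miRNAs described as repressed by MYC were listed for comparison with the cluster, which MYC activates. All 12 were tested, and 2 were called higher and 5 lower, with a median of -0.46. Over the 506 tested miRNAs, 23.3% were called higher and 21.1% lower, with a median of 0.06. With the term for control replicate 3, 0 were called higher and 3 lower, namely miR-15a-5p, miR-16-5p and miR-146a-5p, the last of which was not called without it. Those higher were miR-22-3p (0.47, edgeR adjusted p = 0.0200) and miR-26a-5p (0.46, edgeR adjusted p = 0.0175). The signs of both turned under scaling to total counts (-0.10 and -0.11). Those lower were miR-15a-5p (-1.14, edgeR adjusted p = 0.00435), miR-16-5p (-0.68, edgeR adjusted p = 0.00171), miR-29a-3p (-0.52), miR-29c-3p (-0.93) and miR-195-5p (-1.21). The calls of miR-22-3p, miR-26a-5p, miR-29a-3p, miR-29c-3p and miR-195-5p were lost with the term (edgeR adjusted p = 0.265, 0.259, 0.115, 0.0534 and 0.0734).

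The tested miRNAs outside the cluster whose profile over the 6 libraries was nearest to the mean profile of the 6 guide arms were miR-942-5p, miR-29c-3p, miR-93-5p, miR-660-5p and miR-548k. Their root mean square distances on the log2 scale were 0.0857, 0.0860, 0.120, 0.150 and 0.150. Among the members themselves this distance ran from 0.0885 for miR-20a-5p to 0.488 for miR-18a-3p. Of the nearest 5, miR-660-5p had the lowest log2 fold change (-1.21, edgeR adjusted p = 0.00123), and miR-93-5p is the chromosome 7 paralogue described above. miR-29c-3p and miR-548k lost their calls with the term for control replicate 3 (edgeR adjusted p = 0.0534 and 0.102).

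The promoter window of MIR17HG around its annotated start in RefSeq (chr13:91347437-91347736, GRCh38.p14, plus strand), was searched on both strands for 4 short motifs. It held no match to the MYC E-box CACGTG, to the E2F sites TTTCGCGC and TTTGGCGC, or to AGGTCA, the repeat unit of retinoic acid response elements. These motifs occur in 7.26%, 0.515%, 0.652% and 13.8% of the 35116 promoter windows, respectively. The absence says only that these letters are not in this window.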

How the data were processed

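Small RNA was sequenced from 3 control and 3 RARαS77A samples of MDA-MB-231 cells. The authors deposited 1 table with raw read counts of 1582 miRNAs per library, as whole numbers that are not normalized. The same table holds TPM, which the authors computed from each count and its column total without a length term (largest difference from recomputed CPM 4.74e-05). The submitters' processing notes name Bowtie. The reference, build, strand setting and treatment of reads with several matches are missing from the sources consulted, and 0 columns of per-sample values were left out.

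Counts were tested with edgeR 4.0.16 in R 4.3.3 (TMM, filterByExpr with a minimum count of 10, glmQLFit and glmQLFTest), with Benjamini-Hochberg adjustment over 506 miRNAs. Ratios within a library were taken after adding 0.5 counts and compared with limma 3.58.1 (eBayes with trend, over all miRNAs or all hairpins) and with two-sided exact permutation tests. The SE of a log2 fold change was derived from its F statistic, as its size over the root of F. DESeq2 1.42.0, limma-voom, limma on log2 of TPM plus 1 or 10, other scalings, no filter, a replicate block and single left-out libraries were alternatives. Another alternative was a term that places control replicate 3 with the RARαS77A libraries, a split that the labels do not name. It leaves control replicate 3 as the only control in the comparison of the groups. The scripts were checked on simulated counts. Sequences and promoter windows came from RefSeq (GRCh38.p14), and all 10 members were matched by name. Gene positions came from GENCODE 29.

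The members and lists were chosen with earlier results of these data known. The miRNAs named are the members, the other arms of their hairpins, listed paralogues, seed families and miRNAs described as repressed by MYC, and the 5 tested miRNAs with the profile nearest to the guide arms.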

Additional observations from a re-analysis of the deposited data

How the results depend on the processing

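Over the 18 alternatives for each of the 10 members, 178 of 180 values were negative, 149 kept sign and call status, 7 lost the call (all miR-20a-3p) and 22 gained it. Upper quartile scaling turned miR-17-3p (0.038), miR-18a-3p (0.12) and miR-19b-1-5p (0.046) positive. All 10 members were called lower under total counts and with limma on TPM plus 1 or plus 10, which have no composition factor. Lower calls over all miRNAs were then 213, 221 and 218, and higher calls 51, 55 and 59. Without a filter 162 were lower, and with the term for control replicate 3, 55 were lower and 76 higher, with 0 member arm ratios called (1 at an unadjusted p under 0.05, limma). That term for ratios and the limma test of ratios to miR-17-5p were chosen after seeing the data. Under total counts, totals without the 5 most abundant, no filter, and TPM plus 1 and plus 10, miR-106b-3p was at -0.51, -0.17, -0.12, -0.51 and -0.50, miR-25-3p at -0.44, -0.10, -0.048, -0.44 and -0.44, and miR-32-5p at -0.39, -0.06, -0.011, -0.42 and -0.39. miR-20b-5p was at -0.32 with the term. Without single libraries, 5 to 7 members were called lower, against 92 to 116 of the 517 to 532 miRNAs then tested. miR-106b-3p then lay between -0.013 and 0.12, and miR-32-5p between -0.0012 and 0.27. DESeq2 called 7 members lower, and 111 of all 506 tested miRNAs. Where not given, the cause was not tested.

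With a replicate block, 6 members were called lower and 0 higher, against 94 and 107 of the 506 tested miRNAs. No member call changed. miR-106a-5p (-0.74, edgeR adjusted p = 0.0432) and miR-363-3p (2.38, edgeR adjusted p = 0.0368) gained calls. Deviations of libraries with the same number correlated at 0.0390, 0.0992 and 0.0209, so libraries were not taken as paired by number. Depth limits miR-20a-3p, miR-92a-1-5p, miR-17-3p and miR-19a-3p most, with as few as 15, 21, 54 and 37 counts in a library.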

Other observations

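The arms of the chromosome 7 hairpins moved unequally, in ratios that are free of scaling. The log2 ratio of miR-106b-3p to miR-106b-5p was -0.02, 0.06 and 0.22 in control and 1.45, 1.47 and 1.78 in RARαS77A libraries, a difference of 1.48 (SE 0.16, limma adjusted p = 0.00073). For miR-25-3p against miR-25-5p it was 6, 5.86 and 5.69 in control and 9.36, 8.60 and 8.05 in RARαS77A libraries, a difference of 2.82 (SE 0.33, limma adjusted p = 0.000799). miR-93-3p against miR-93-5p differed by -0.09 (limma adjusted p = 0.777), with overlap. The 3p arm of miR-17, miR-18a, miR-92a, miR-106b and miR-25 was higher relative to the 5p arm in each RARαS77A library than in any control. In miR-19b the 3p arm was lower in all 3. The arm ratios of miR-18a and miR-92a were not called, where 53.2% of the 141 hairpins were called in either direction. With the term for control replicate 3, the arm ratios of miR-106b (1.35) and miR-25 (2.98) kept their calls (limma adjusted p = 0.018 for each), and those of miR-17 and miR-19b did not.

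The miR-19 guide arms differ by U11C and also differed in level. miR-19a-3p stood at 8.37%, 8.31% and 11.1% of miR-19b-3p in control and at 13.7%, 19.9% and 19.9% in RARαS77A libraries, without overlap (two-sided exact permutation test, p = 0.1, the smallest that 3 against 3 allow). miR-19b-3p can also come from MIR19B2 on chromosome X, where the table gave few counts for the neighbouring arms.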
